A study of Homo sapiens with 18 samples.

Results

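TXNIP (thioredoxin-interacting protein), the arrestin-domain genes ARRDC1, ARRDC2, ARRDC3 and ARRDC4, and MLXIP and MLX, which encode a glucose-sensing transcription factor pair, were followed in PEO1 cells. PEO1 is a human ovarian cancer line that carries mutant p53, per the series title. The genes were selected by their symbols, through the Ensembl transcripts listed in each row of the count table. All 7 of 7 were found, 1 row each, among 57736 rows, and all 7 passed the filter on low counts that left 14831 genes for testing. The group was chosen after differences of TXNIP between these samples had been seen, so its values are given as a description and without p-values for the simple contrasts.

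The 18 libraries formed 6 groups of 3. The 3 siControl groups were transfected with a control siRNA and the 3 sip53 groups with an siRNA against p53. In each arm, 1 group was untreated (0 h) and the others had received 10 nM estradiol (E2), the main estrogen, for 2 h or 8 h. All groups had been kept for 48 h in medium without phenol red and with serum stripped of hormones. The labels name 1 p53 reagent and do not say whether it was a single sequence or a pool. They do not name a vehicle for the 0 h groups. No group was followed for 2 h or 8 h without E2, so E2 cannot be told apart from elapsed time or handling. An E2 effect here means a difference from 0 h. The labels also do not state that the replicates were separate cultures. The p-values therefore reflect no more than the spread among these libraries, part or all of which may be technical.

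TXNIP and the ARRDC proteins are alpha-arrestins, adaptors that bring ubiquitin ligases of the NEDD4 family to membrane proteins so that these are internalised. TXNIP also binds thioredoxin and restrains glucose uptake, in part through the transporter GLUT1, the product of SLC2A1. MLXIP, also called MondoA, pairs with MLX, moves to the nucleus when glucose 6-phosphate accumulates, and binds carbohydrate response elements. TXNIP and ARRDC4 are its best known targets.

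The stretches before 3 of the start sites are shown because each holds a short motif that was searched for. In TXNIP it is a pair of boxes, the form of a carbohydrate response element. In ARRDC4 and MLX it is a single box, and the pair was not found. Whether MLXIP and MLX bind any of these sites was not tested. The stretches come from RefSeq on GRCh38.p14, run 5′ to 3′ on the gene's strand, and end just before the gene's start in GENCODE v29. Capitals mark the match. TXNIP lies at chr1:145996601-145996829 on the minus strand, ARRDC4 at chr15:97960453-97960697 on the plus strand and MLX at chr17:42566850-42567067 on the plus strand.
TXNIP: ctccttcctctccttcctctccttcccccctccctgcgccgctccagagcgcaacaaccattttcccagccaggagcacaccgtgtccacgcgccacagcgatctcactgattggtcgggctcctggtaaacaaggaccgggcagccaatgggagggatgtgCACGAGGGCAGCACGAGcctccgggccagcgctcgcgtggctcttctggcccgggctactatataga
ARRDC4: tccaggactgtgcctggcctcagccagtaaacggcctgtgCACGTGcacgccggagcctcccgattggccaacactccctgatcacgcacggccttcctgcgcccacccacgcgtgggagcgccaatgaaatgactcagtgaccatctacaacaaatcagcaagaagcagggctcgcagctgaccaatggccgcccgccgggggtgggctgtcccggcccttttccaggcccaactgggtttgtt
MLX: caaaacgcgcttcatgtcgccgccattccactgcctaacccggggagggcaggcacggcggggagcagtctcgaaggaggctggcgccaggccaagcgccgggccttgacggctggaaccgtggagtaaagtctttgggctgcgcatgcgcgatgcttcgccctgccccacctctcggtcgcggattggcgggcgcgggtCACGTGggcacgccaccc

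The capitals in the TXNIP stretch match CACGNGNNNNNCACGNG, a pair of boxes 5 bases apart that begins at position -88 from the RefSeq start. The letters of this pair were set with the known TXNIP element in mind, so the match is no finding of these data. On both strands, the pair occurred in 16 of 35116 RefSeq promoters (0.046%), counting the 250 bases before each start. ARRDC4 and MLX each held the single box CACGTG, at -210 and -50. That box occurred in 2228 promoters (6.34%). RefSeq gave 10 windows for the 7 genes, and those of ARRDC1, ARRDC2, ARRDC3, MLXIP and a further TXNIP start held neither.

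Named genes took 7489400 to 10066706 counts per siControl library and 9167543 to 11233765 per sip53 library. The library numbers in the labels also form a separate run for each arm. Any effect of library order thus cannot be told apart from that of the siRNA. The biological variation common to the tested genes (coefficient of variation) was 14.6%. All 10 epithelial and ovarian carcinoma markers on the list (such as PAX8, EPCAM and KRT18) were detected, with a summed level of 5040 to 5610 CPM (counts relative to library size, after TMM scaling) in the siControl libraries and 6240 to 7600 CPM in the sip53 libraries, and their part in the differences between arms was not tested. COL1A2, COL3A1, DCN, LUM, PTPRC and CD3E, which mark fibroblasts and leukocytes, were at 0 in every library. Others on those lists were not: COL1A1 ran from 4.63 to 13.5 CPM, FAP from 7.21 to 17.3, CD14 from 4.03 to 8.99 and CD68 from 5.03 to 11.7, and their part in the results was not tested. Replicate 2 of siControl at 0 h had the lowest depth and the largest distance from its group. Its values stayed in.

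**Figure D1:**
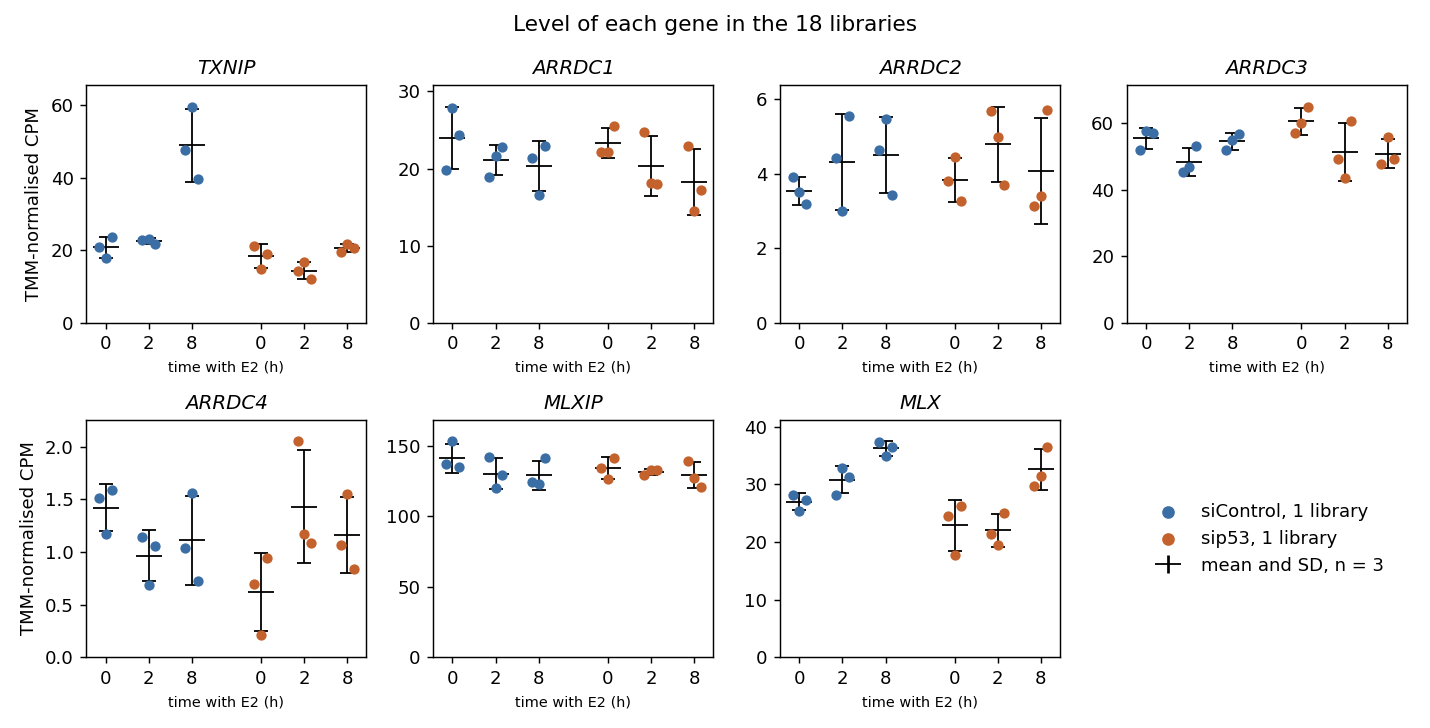
Level of each gene in every library, in TMM-normalised CPM, counts relative to library size (vertical axis, from 0), by arm and time with E2 (horizontal axis). Points are libraries, and bars give mean and SD of 3. The 3 TXNIP points of siControl at 8 h, between 39.6 and 59.7 CPM, lie above all others, and MLX is highest at 8 h in both arms.

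TXNIP (ENSG00000265972, chromosome 1, 145992435 to 145996600 on GRCh38, minus strand) was highest in siControl cells after 8 h of E2. In siControl the libraries held 20.9, 18 and 23.8 CPM at 0 h, 22.8, 23.2 and 21.6 CPM at 2 h, and 47.7, 59.7 and 39.6 CPM at 8 h. All 3 libraries at 8 h lay above every other library of the study. Between 8 h and 0 h of siControl 19.6% of all genes had no overlap, and between arms at 8 h 29.7%. In sip53 cells TXNIP held 21.3, 14.7 and 19.1 CPM at 0 h, 14.2, 16.8 and 12.2 CPM at 2 h, and 19.5, 21.7 and 20.6 CPM at 8 h. There the groups at 0 h and 8 h overlapped, and no library reached 22 CPM. These levels rest on 135 to 534 counts per library.

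By group mean, TXNIP ran from 49 ± 10.1 CPM (SD, n = 3) in siControl at 8 h, through 22.5 ± 0.83 in siControl at 2 h, 20.9 ± 2.9 in siControl at 0 h, 20.6 ± 1.13 in sip53 at 8 h and 18.4 ± 3.37 in sip53 at 0 h, to 14.4 ± 2.28 CPM in sip53 at 2 h. Only the first step of this order, from siControl at 8 h to siControl at 2 h, separated neighbouring groups without overlap. Between each of the other neighbours the libraries overlapped.

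The fitted log2 difference of TXNIP between 8 h and 0 h was 1.23 ± 0.16 (SE) in siControl, a 2.34-fold level, and 0.16 ± 0.17 in sip53, with a 95% interval of -0.18 to 0.51. At 2 h the log2 difference from 0 h was 0.11 ± 0.17 in siControl and -0.36 ± 0.17 in sip53. Between arms, sip53 minus siControl, it was -0.19 ± 0.17 at 0 h, -0.65 ± 0.17 at 2 h and -1.25 ± 0.16 at 8 h, where the sip53 level was 0.421 times the siControl level. The contrasts share libraries: both E2 contrasts of an arm use the 0 h libraries of that arm, and the contrast between arms at 0 h uses those of both. Without replicate 2 of siControl at 0 h, the 8 h difference in siControl was 1.13.

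The test of whether the E2 effect itself differed between arms did not pass. For TXNIP at 8 h the difference of differences was -1.06 ± 0.23 on the log2 scale, with a 95% interval of -1.55 to -0.58. It was not called by edgeR's quasi-likelihood test (Benjamini-Hochberg adjusted p = 0.999). Over the 18 alternatives the value ran from -1.20 to -0.89 and the adjusted p from 0.0086 to 1, and it was called with no filter on low counts and in no other. This contrast uses the libraries in which TXNIP was noticed, so these values support nothing further. At 2 h the difference was -0.47 ± 0.24 (adjusted p = 0.999). No gene was called in either of these contrasts by edgeR, while DESeq2 called 1 gene at each time. By edgeR, 459 genes at 2 h (3.09% of those tested) and 574 at 8 h (3.87%) had an unadjusted p under 0.05. Both shares are below the fraction of 0.05 that this threshold passes with no effect in any gene.

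A gene was called where its adjusted p was under 0.05 over all genes tested. Of the 7 genes, TXNIP and MLX were called lower in sip53 than in siControl at 2 h, where 12.6% of all genes were called in either direction. TXNIP was called lower at 8 h (background 9.39%), and 0 of 7 were called at 0 h (9.63%). With E2, TXNIP was called higher at 8 h in siControl, where 2.76% of all genes were called. None of the 7 was called at 2 h in siControl (0.249%), at 2 h in sip53 (0.317%) or at 8 h in sip53 (2.83%). In the differences between arms in the E2 effect, none was called at 2 h (0%) or 8 h (0%). Because these contrasts were in view when the genes were chosen, nothing is read from the counts.

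With any 1 of the 6 libraries of the contrast left out, the TXNIP log2 difference at 8 h ran from -1.38 to -1.08 between arms and from 1.06 to 1.36 in siControl. The call at 2 h was lost without replicate 2 of siControl (log2 difference -0.63) or without replicate 3 of sip53 (-0.54), each at 2 h. The median log2 difference over the 7 genes lay between -0.14 and 0.09 in all 9 contrasts, and that over all genes between -0.03 and 0.

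**Figure D2:**
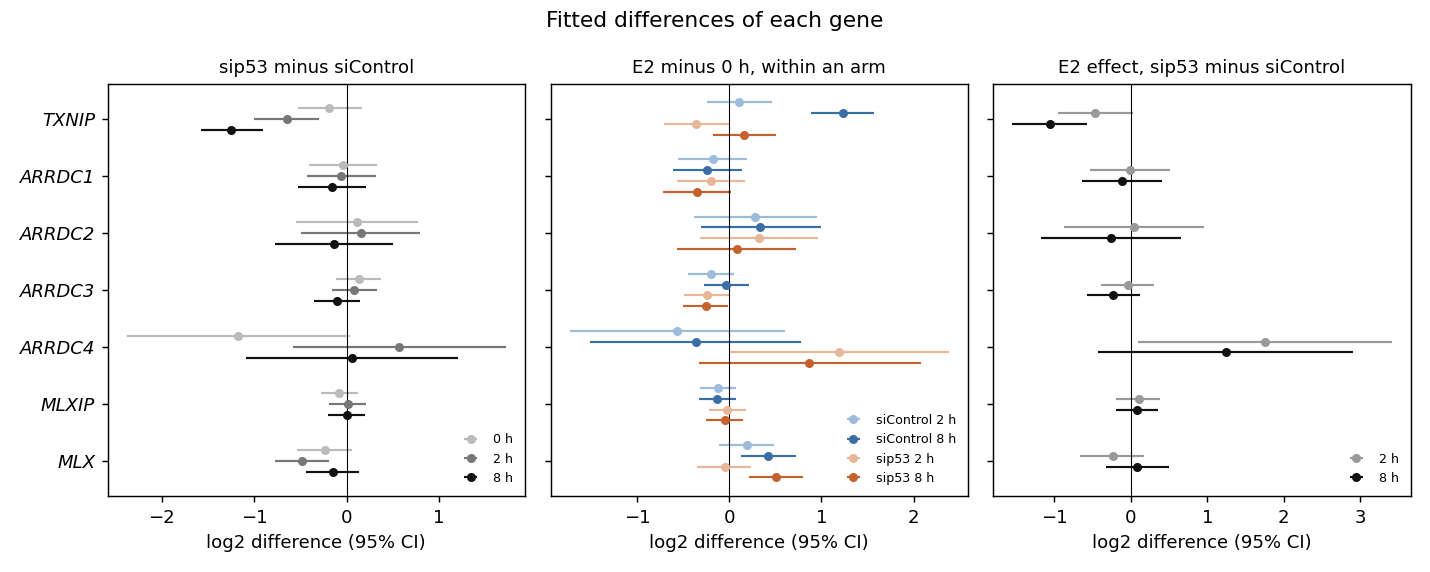
Fitted log2 differences (horizontal axis) of the 7 genes, with 95% confidence intervals, for the knockdown at each time, for E2 within each arm, and for the difference between arms in the E2 effect. TXNIP stands at 1.23 for 8 h of E2 in siControl and at -1.25 for the knockdown at 8 h, and the ARRDC4 intervals are the widest.

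The partner genes of the glucose sensor had separate patterns. MLX (ENSG00000108788, chromosome 17, 42567068 to 42573239, plus strand), the shared dimer partner of MLXIP, was highest at 8 h in both arms. In siControl it held 28.2, 25.4 and 27.3 CPM at 0 h, 28.2, 32.8 and 31.3 CPM at 2 h, and 37.3, 34.9 and 36.5 CPM at 8 h. All 3 libraries at 8 h lay above all 6 of the earlier times. In sip53 it held 24.5, 17.8 and 26.3 CPM at 0 h, 21.4, 19.5 and 25.1 CPM at 2 h, and 29.7, 31.5 and 36.5 CPM at 8 h. Here too the 8 h libraries lay above those of 0 h and 2 h, and the groups at 0 h and 2 h overlapped. Between 8 h and 0 h, 19.6% of all genes had no overlap in siControl and 19.8% in sip53.

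The log2 difference of MLX between 8 h and 0 h was 0.42 ± 0.14 in siControl and 0.51 ± 0.14 in sip53, and neither was called. In sip53 the 8 h difference was called in 6 of the 12 other settings tried, among them DESeq2 and the other scalings, with values of 0.36 to 0.62. The difference between arms in this effect was 0.08 ± 0.20, with an interval of -0.33 to 0.50 and an adjusted p of 0.999 by edgeR. At 2 h it was -0.24 ± 0.20 (adjusted p = 0.999). Between arms, MLX was lower in sip53 by a log2 difference of -0.48 ± 0.14 at 2 h, without overlap (22 ± 2.83 against 30.8 ± 2.32 CPM). In this contrast 33.4% of all genes had no overlap. Leaving out 1 library at a time ended that call in 4 of 6 cases: without replicate 2 (-0.43) or 3 (-0.47) of siControl, or replicate 1 (-0.46) or 2 (-0.41) of sip53. At 0 h the difference was -0.24 ± 0.14 and at 8 h -0.15 ± 0.14, with overlapping libraries.

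The end of MLX overlaps PSMC3IP on the other strand, and no source used here states whether the counting used strand. PSMC3IP had 95 to 194 counts per library, 17.4 ± 1.84 CPM in siControl and 14.6 ± 1.89 CPM in sip53 at 0 h, and 16.9 ± 2.34 and 13.6 ± 2.9 CPM at 8 h. Its 8 h minus 0 h log2 difference was -0.05 ± 0.20 in siControl and -0.11 ± 0.20 in sip53. At 2 h PSMC3IP was at 13.2 ± 0.982 CPM in siControl and 12.5 ± 4.06 CPM in sip53, a log2 difference between arms of -0.07 ± 0.20. From 0 h to 2 h it changed by -0.41 ± 0.20 in siControl, without overlap (13.7% of all genes) and not called, and by -0.22 ± 0.20 in sip53. Its part in the MLX values was not tested.

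MLXIP (ENSG00000175727, chromosome 12, 122078722 to 122147347, plus strand), the sensor subunit, was at a similar level in every library, from 120 to 153 CPM with a median of 133. The libraries of the 6 groups overlapped in all 7 simple contrasts. Its largest log2 difference was -0.13 ± 0.10, between 8 h and 0 h of siControl. Between arms at 8 h it was 0.00 ± 0.10, with an interval of -0.20 to 0.20. With 1044 to 1559 counts per library it had the most counts of the 7 genes.

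ARRDC3 (ENSG00000113369, chromosome 5, 91368724 to 91383359, minus strand), known for the internalisation of integrin beta-4, ran from 43.7 to 65.1 CPM. In siControl it held 52, 57.8 and 57.1 CPM at 0 h, 45.3, 46.8 and 53.1 CPM at 2 h, and 51.9, 55.1 and 56.9 CPM at 8 h. In sip53 it held 57.1, 60.1 and 65.1 CPM at 0 h, 49.3, 43.7 and 60.8 CPM at 2 h, and 47.7, 55.8 and 49.2 CPM at 8 h. The sip53 libraries at 8 h lay below those at 0 h, by a log2 difference of -0.25 ± 0.12 that was not called (19.8% of all genes had no overlap in this contrast). In siControl the same difference was -0.03 ± 0.12. The difference between arms in this E2 effect, -0.23 ± 0.17, had an adjusted p of 0.999 by edgeR. The differences between sip53 and siControl were 0.13, 0.08 and -0.10 at 0, 2 and 8 h (SE 0.12 each).

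ARRDC4 (ENSG00000140450, chromosome 15, 97960698 to 97973838, plus strand), the closest relative of TXNIP in its regulation, had 2 to 23 counts per library, which left SEs of 0.55 to 0.58 on its log2 differences. Its level in siControl was 1.51, 1.17 and 1.59 CPM at 0 h, 1.14, 0.69 and 1.06 CPM at 2 h, and 1.04, 1.56 and 0.728 CPM at 8 h. In sip53 it was 0.699, 0.217 and 0.946 CPM at 0 h, 2.05, 1.17 and 1.09 CPM at 2 h, and 1.07, 1.55 and 0.842 CPM at 8 h. At 0 h the sip53 libraries lay below the siControl libraries, by a log2 difference of -1.18 ± 0.58 that was not called (24.7% of all genes had no overlap in this contrast). The 2 h libraries lay below those of 0 h in siControl and above them in sip53, where 13.7% and 15.3% of all genes had no overlap. In siControl this rested on 1.14 against 1.17 CPM, from 10 and 9 counts, so the raw counts overlapped. The log2 differences were -0.56 ± 0.56 and 1.19 ± 0.57, and their difference was 1.75 ± 0.81 (adjusted p = 0.999 by edgeR). The lowest library, replicate 2 of sip53 at 0 h, held 2 counts. Without it the difference between arms in the 2 h E2 effect was 1.36. At 8 h the log2 difference from 0 h was -0.36 ± 0.55 in siControl, so the TXNIP pattern at 8 h was not visible in ARRDC4 at this depth.

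ARRDC1 (ENSG00000197070, chromosome 9, 137605654 to 137615360, plus strand), which recruits the ESCRT machinery to bud vesicles from the cell surface, ran from 14.5 to 27.9 CPM with a median of 21.8. Its group means were 24, 21.1 and 20.3 CPM in siControl and 23.3, 20.3 and 18.2 CPM in sip53 at 0, 2 and 8 h. The libraries overlapped in each simple contrast, and the largest log2 difference was -0.35 ± 0.18, between 8 h and 0 h of sip53. An antisense gene that overlaps the end of ARRDC1 had 3 to 28 counts per library, and a same-strand transcript, ENSG00000283411, spans most of ARRDC1 and was not analysed here. ARRDC2 (ENSG00000105643, chromosome 19, 18001132 to 18014102, plus strand) ran from 2.99 to 5.71 CPM on 26 to 64 counts. Its groups overlapped in each simple contrast, with log2 differences of -0.14 to 0.34 and SE of 0.31 or 0.32.

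The 7 genes did not vary as a block over the 18 libraries. The log2 CPM of TXNIP and MLX had a Pearson r of 0.73. TXNIP with each of the other 5 ran from -0.22 to 0.12, and MLX with MLXIP was at -0.23. ARRDC1 and MLXIP had an r of 0.50. These values describe 18 points that fall into 6 groups and share library scaling.

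By Pearson r of log2 CPM over the 18 libraries, among 9647 genes with an average log2 CPM of at least 3, the 5 genes most like TXNIP were GADD45A at 0.92, NFE2L2 at 0.90, ESRP1 at 0.89, KLF9 at 0.88 and HBEGF at 0.88. GADD45A encodes a growth arrest and DNA damage protein, NFE2L2 the antioxidant transcription factor NRF2, ESRP1 an epithelial splicing regulator, KLF9 a hormone-responsive Kruppel-like factor and HBEGF an EGF receptor ligand. They were picked for this likeness, so their differences are a description. GADD45A was at 86.1 ± 9.18 CPM at 0 h and 172 ± 32.3 CPM at 8 h in siControl, and at 64.7 ± 16.5 and 101 ± 16.6 CPM in sip53. NFE2L2 was at 107 ± 17.4 and 187 ± 5.83 CPM in siControl, and at 88.3 ± 21.8 and 118 ± 20 CPM in sip53.

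All 5 had their highest mean in siControl at 8 h. Their log2 differences between 8 h and 0 h were 1.00 ± 0.16, 0.80 ± 0.14, 0.38 ± 0.10, 0.73 ± 0.18 and 0.46 ± 0.10 in siControl, in the order above. In sip53 they were 0.64 ± 0.16, 0.42 ± 0.14, 0.11 ± 0.10, 0.12 ± 0.18 and 0.30 ± 0.10. None of the differences between arms in this E2 effect was called by edgeR (adjusted p = 0.999 each). Compared directly at 8 h, sip53 minus siControl, the 5 genes were at -0.77 ± 0.16, -0.67 ± 0.14, -0.39 ± 0.10, -0.61 ± 0.17 and -0.53 ± 0.10. All 5 of these were called, where 9.39% of all genes were. Having been picked for likeness to TXNIP, they add nothing to it. The genes most like MLX were INPP4B at 0.88, XBP1 at 0.85 and GLYR1 at 0.84. For ARRDC3 the nearest was EPHB3 at 0.83, for ARRDC1 it was GUSBP3 at 0.84, for MLXIP EIF2AK4 at 0.82, for ARRDC2 CRYZL1 at 0.72 and for ARRDC4 MALT1 at 0.63.

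**Figure D3:**
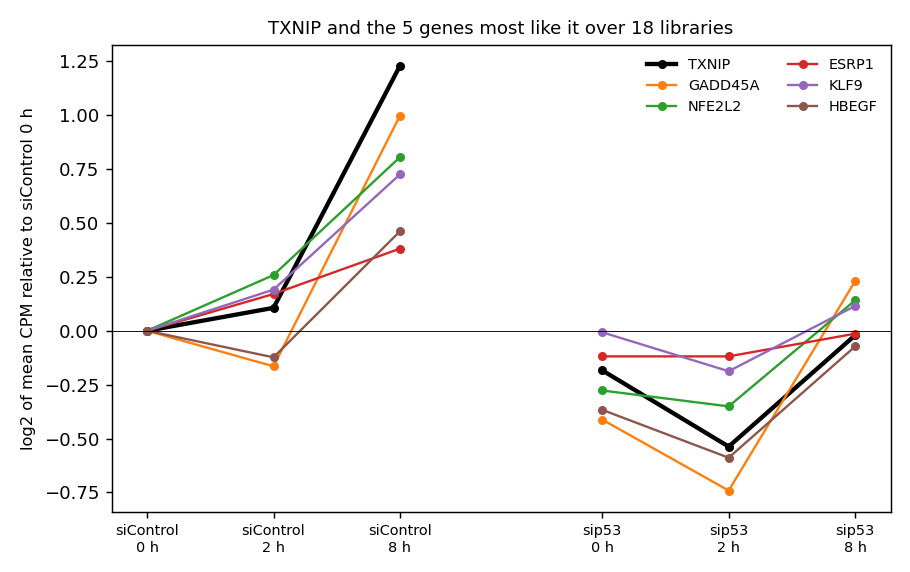
Group means of TXNIP and of the 5 genes most like it, as log2 of mean CPM relative to siControl at 0 h (vertical axis), by arm and time with E2 (horizontal axis). Each line joins the 3 times of an arm, and all 6 genes are highest in siControl at 8 h.

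The proteins that TXNIP and the arrestins work with were examined through gene lists. The lists were drawn up with results of these data known. In the thioredoxin system, whose central protein TXNIP binds, 4 of 18 tested genes were called between arms at 0 h (3 higher and 1 lower in sip53), 6 at 2 h (5 and 1) and 3 at 8 h (2 and 1), where 9.63%, 12.6% and 9.39% of all genes were called. The list's median log2 difference was 0.24, 0.16 and 0.22, against 0 over all genes. TXNRD1, the cytosolic thioredoxin reductase, fell from 111 ± 30.7 to 62.3 ± 13.3 CPM at 0 h, from 113 ± 12.3 to 56.1 ± 7.53 CPM at 2 h and from 115 ± 9.47 to 55 ± 4.97 CPM at 8 h. Its log2 differences were -0.84 ± 0.17, -1.01 ± 0.17 and -1.06 ± 0.17 (edgeR adjusted p = 0.00361, 0.000526 and 0.000399), and all 3 calls held with any 1 library left out.

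Some peroxiredoxins, peroxide-reducing enzymes of which several depend on thioredoxin, were higher in sip53. PRDX6 rose in sip53 by 0.59 ± 0.11 at 0 h, 0.56 ± 0.11 at 2 h and 0.39 ± 0.11 at 8 h (edgeR adjusted p = 0.00175, 0.00157 and 0.0217). PRDX2 rose by 0.47 ± 0.11, 0.51 ± 0.11 and 0.63 ± 0.11 (0.0114, 0.00396 and 0.00123). The 8 h call of PRDX6 was lost in 3 of 6 fits without a library (adjusted p up to 0.145), and the 0 h call of PRDX2 in 2 (up to 0.104). PRDX1 was called at 0 h (0.33 ± 0.10) and 2 h (0.35 ± 0.10) and TXN2, mitochondrial thioredoxin, at 2 h (0.49 ± 0.14), each lost in at least 4 of 6 such fits (adjusted p up to 0.205). TXN itself was at 0.46 ± 0.19, 0.14 ± 0.19 and 0.09 ± 0.19 and was not called. With E2, 0 of the 18 were called in either arm, where 0.249% to 2.83% of all genes were called.

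Among genes of glucose uptake and phosphorylation, 14 of 15 were tested. Between arms 3 were called higher and 1 lower at 0 h, 1 and 1 at 2 h, and 1 and 2 at 8 h, where 9.63%, 12.6% and 9.39% of all genes were called. The list medians were 0.37, 0.07 and 0.20, against 0 over all genes. HKDC1, a hexokinase-like enzyme, fell by 0.68 on the log2 scale at 8 h (SE 0.15, edgeR adjusted p = 0.00726). That call held with any 1 library left out.

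GPI, the next glycolytic enzyme, rose by 0.41, 0.39 and 0.43 at 0, 2 and 8 h (SE 0.11 each), each call being lost in 3 of the 6 fits without a library, with an edgeR adjusted p of up to 0.107. GFPT1, which opens the hexosamine pathway, fell by 0.47, 0.43 and 0.44 (SE 0.11 each), and its calls were lost without replicate 2 of sip53 at 0 h (adjusted p = 0.0666), without replicate 1 of sip53 at 2 h (0.0645) and in 3 of 6 fits at 8 h (up to 0.108). HK1 at 0 h (0.40 ± 0.11) and SLC2A1 at 0 h (0.42 ± 0.12) were called and lost in 4 of 6 such fits (up to 0.148). 

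SLC2A1, whose product TXNIP removes from the cell surface, was higher with E2 in siControl. Its level was 80.9 ± 5.19 CPM at 0 h, 126 ± 17.6 CPM at 2 h and 115 ± 17.1 CPM at 8 h, and in sip53 108 ± 13.9, 131 ± 0.987 and 132 ± 3.17 CPM. In siControl it rose by 0.64 ± 0.12 at 2 h and 0.51 ± 0.12 at 8 h (edgeR adjusted p = 0.0133 and 0.0187). The 2 h call was lost without replicate 2 of siControl at 0 h or replicate 3 of siControl at 2 h (adjusted p up to 0.141), and the 8 h call without replicate 2 at 0 h or replicates 2 or 3 at 8 h (up to 0.102). In sip53 the differences were 0.27 ± 0.12 and 0.29 ± 0.12, not called. The differences between arms in the E2 effect, -0.37 ± 0.17 and -0.22 ± 0.17, were not called either (edgeR adjusted p = 0.999 each). The only other call of this list with E2 was HKDC1, lower at 8 h in sip53 by -0.65 ± 0.15 (adjusted p = 0.0193, lost in 4 of 6 fits without a library, up to 0.126).

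Among further carbohydrate-response targets, 9 of 15 were tested and 3 were called higher and 1 lower in sip53 at each time (9.63%, 12.6% and 9.39% of all genes). ACLY, ATP citrate lyase, fell by 1.01, 1.08 and 0.82 on the log2 scale at 0, 2 and 8 h (SE 0.11 each), and SCD, the stearoyl-CoA desaturase, rose by 0.71, 0.54 and 0.54 (SE 0.10 each). The ACLY and SCD calls held with any 1 library left out. The others called were FASN, fatty acid synthase, and TKT, transketolase, higher by 0.32 to 0.45. The FASN calls at 2 h and 8 h held likewise, its 0 h call was lost in 3 of 6 fits without a library (adjusted p up to 0.0811), and the TKT calls were lost in 3, 4 and 1 of 6 (up to 0.186), the last without replicate 2 of siControl at 8 h (0.0534). With E2, FASN was called lower at 8 h in siControl (-0.39 ± 0.08, edgeR adjusted p = 0.0101), a call lost without replicate 2 of siControl at 8 h (0.0611). Between arms, the list's median log2 difference was 0.07, 0.19 and 0.12 at 0, 2 and 8 h, against 0 over all genes. TXNIP was lower in sip53 at 2 h and 8 h, and the part of MLXIP and MLX in these differences was not tested.

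**Figure D4:**
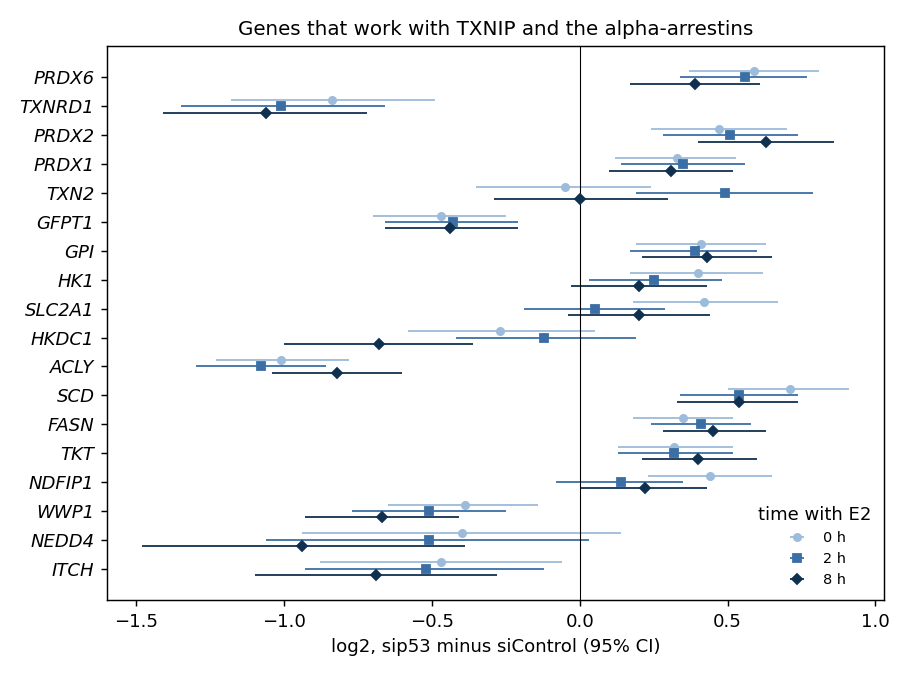
Log2 difference of sip53 minus siControl (horizontal axis, 95% confidence interval) at 0, 2 and 8 h for 18 genes. They are the genes called at any time and named in the text from the thioredoxin, glucose, carbohydrate-response and NEDD4-family lists. In the thioredoxin list 5 genes were called higher at 2 h, and not all of these were named or drawn. TXNRD1 and ACLY lie left of 0 at all 3 times, and PRDX2, PRDX6 and SCD right of it.

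The ligases that alpha-arrestins recruit were tested as 11 genes of the NEDD4 family and its adaptors. Between arms 1 was called higher and 1 lower at 0 h, 0 and 1 at 2 h, and 0 and 3 at 8 h, where 9.63%, 12.6% and 9.39% of all genes were called. The list medians were 0.01, -0.01 and -0.10, against 0 over all genes. WWP1, a ligase known to bind ARRDC proteins, fell from 62.9 ± 8.27 to 39.4 ± 5.08 CPM at 8 h, by 0.67 on the log2 scale (SE 0.13, edgeR adjusted p = 0.0019), and that call held with any 1 library left out. At 2 h it fell by 0.51 (SE 0.13), a call lost without replicate 3 of sip53 at 2 h (adjusted p = 0.0538), and at 0 h by 0.39 (SE 0.13), lost in 4 of 6 such fits (up to 0.178).

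ITCH, the ligase best known for degrading TXNIP, fell at 8 h by 0.69 (SE 0.20, edgeR adjusted p = 0.0291) and NEDD4 by 0.94 (SE 0.26, 0.0276). Each call was lost in 4 of the 6 fits without a library, with an adjusted p of up to 0.169. The NEDD4 libraries overlapped at 8 h. Both genes also had lower means in sip53 at 0 h and 2 h, not called. In siControl and sip53, ITCH was at 57.7 ± 5.14 and 41.6 ± 16.3 CPM at 0 h, and at 58.8 ± 9.75 and 40.9 ± 1.95 CPM at 2 h. NEDD4 was at 18.4 ± 1.53 and 13.9 ± 6.87 CPM at 0 h, and at 16.3 ± 1.89 and 11.4 ± 0.363 CPM at 2 h. NEDD4L was at -0.03, -0.01 and -0.10 (SE 0.09 each) and was not called. NDFIP1, an adaptor that activates these ligases, rose at 0 h by 0.44 ± 0.10 (adjusted p = 0.011, lost in 3 of 6 fits, up to 0.0638). With E2, 0 of the 11 were called in either arm, where 0.249% to 2.83% of all genes were called.

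Of 9 cargo proteins and vesicle partners of the arrestins, 0 were called between arms at 0 h and 2 h, and VPS4B, an ESCRT ATPase, was called lower at 8 h (-0.32 ± 0.10, edgeR adjusted p = 0.0412, lost in 4 of 6 fits without a library, up to 0.219). Over all genes, 9.63%, 12.6% and 9.39% were called between arms at 0, 2 and 8 h. With 8 h of E2 in siControl 2 rose, where 2.76% of all genes were called (2.83% in sip53). INSR, the insulin receptor, rose from 102 ± 5.07 to 161 ± 11 CPM, by 0.66 ± 0.11 (adjusted p = 0.000925), and NOTCH1 from 8.79 ± 2.74 to 18.5 ± 1.62 CPM, by 1.07 ± 0.21 (0.00492). Both calls held with any 1 library left out. In sip53 INSR rose by 0.44 ± 0.11 (0.0238, lost in 5 of 6 fits, up to 0.124) and NOTCH1 was at 0.49 ± 0.20, not called. The differences between arms in the E2 effect at 8 h, -0.22 ± 0.15 for INSR and -0.59 ± 0.29 for NOTCH1, were not called (edgeR adjusted p = 0.999 each). ITGB4, integrin beta-4, was not called in any contrast.

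In the wider MYC-MAX-MLX network, which shares dimer partners and binding sites with MLXIP, 9 of 11 genes were tested. Over all genes, 9.63%, 12.6% and 9.39% were called between arms at 0, 2 and 8 h. The shares called with E2 at 2 h and 8 h were 0.249% and 2.76% in siControl and 0.317% and 2.83% in sip53. MYC rose with 8 h of E2 in both arms, from 13 ± 6.18 to 29.9 ± 5.21 CPM in siControl and from 16.3 ± 0.803 to 38.5 ± 4.51 CPM in sip53, by 1.19 ± 0.22 and 1.24 ± 0.22 (edgeR adjusted p = 0.00351 and 0.00123). Both calls held with any 1 library left out, and the siControl call was lost when only the groups of the contrast were fitted. At 2 h it rose by 1.03 ± 0.22 in sip53 (0.034), a call lost in all 6 fits without a library (up to 0.216), and was at 1.01 ± 0.23 in siControl, not called. MXD3, a repressor of the network, was the only gene called between arms, higher in sip53 at 0 h by 0.70 ± 0.18 (0.016, lost without replicate 2 of siControl or replicate 3 of sip53, up to 0.0913). MLXIPL, the paralog of MLXIP also called ChREBP, was not called in any contrast.

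Glucocorticoid-responsive genes were included because TXNIP and ARRDC2 are known to respond to steroids, and 7 of 8 were tested. Over all genes, 2.76% in siControl and 2.83% in sip53 were called with 8 h of E2. Between arms it was 9.63% at 0 h and 9.39% at 8 h. The list's median log2 difference with 8 h of E2 was 0.50 in siControl and -0.07 in sip53, against 0 and -0.02 over all genes. For the difference between arms in that effect it was -0.56, against -0.03. Directly between arms it was 0.07, -0.16 and -0.27 at 0, 2 and 8 h, against 0. The list was not tested as a set. TSC22D3, also called GILZ, rose with 8 h of E2 from 2.2 ± 0.462 to 8.41 ± 2.35 CPM in siControl and from 0.874 ± 0.152 to 4.3 ± 0.474 CPM in sip53. The log2 differences were 1.93 ± 0.34 and 2.28 ± 0.38 (edgeR adjusted p = 0.00149 and 0.000607). SGK1, a serum- and steroid-induced kinase, fell in sip53 from 36.1 ± 2.11 to 18.3 ± 3.98 CPM, by 0.98 on the log2 scale (SE 0.17, 0.00097). These 3 calls held with any 1 library left out. In siControl SGK1 was at -0.42 ± 0.17, not called. The difference between arms in this E2 effect, -0.56 ± 0.24, was not called (edgeR adjusted p = 0.999).

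KLF9 rose with 8 h of E2 in siControl (0.73 ± 0.18, edgeR adjusted p = 0.0223) and was lower in sip53 at 8 h (-0.61 ± 0.17, 0.0279), each call being lost in 4 of 6 fits without a library (up to 0.147). At 0 h SGK1 was called higher (0.64 ± 0.17) and TSC22D3 lower (-1.32 ± 0.40) in sip53, lost in 4 and 5 of 6 such fits (up to 0.131). FKBP5 was not called in any contrast.

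Of the AMP-activated kinase and inflammasome partners, 10 of 11 were tested. Over all genes, 9.63%, 12.6% and 9.39% were called between arms at 0, 2 and 8 h, and 2.83% with 8 h of E2 in sip53. PYCARD, the inflammasome adaptor ASC, was called higher in sip53 at each time (0.42 ± 0.13, 0.44 ± 0.12 and 0.40 ± 0.12), with the call lost in 4, 3 and 6 of 6 fits without a library (edgeR adjusted p up to 0.148). PRKAA2 was called higher with 8 h of E2 in sip53 (0.37 ± 0.10, adjusted p = 0.0455) and lost in all 6. Of the beta-arrestin genes and ARRDC5, 2 of 3 were tested and 0 were called in any contrast, where 0% to 12.6% of all genes were called.

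When only the 6 libraries of a contrast were fitted, several of these list calls were lost. Between arms at 0 h these were PYCARD, FASN, TKT, TSC22D3, GFPT1, GPI, HK1, SLC2A1, MXD3, NDFIP1, WWP1, PRDX1 and PRDX2, and at 8 h VPS4B. With E2 they were SLC2A1, FASN, KLF9 and MYC in siControl and HKDC1 and PRKAA2 in sip53. With no filter on low counts, TKT and TSC22D3 at 0 h, VPS4B at 8 h and PRKAA2 were lost, and VPS4B was also lost with upper-quartile scaling. Without replicate 2 of siControl at 0 h, 12 list calls were lost, with an edgeR adjusted p of 0.0501 to 0.144. Between arms at 0 h these were FASN, SLC2A1, HK1, SGK1, TSC22D3, PYCARD, MXD3, NDFIP1 and PRDX1, and with E2 in siControl they were SLC2A1 at 2 h and 8 h and KLF9 at 8 h.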

How the data were processed

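RNA of 18 PEO1 samples was measured with QuantSeq 3′ FWD, which reads transcript ends. The authors deposited RSEM expected counts per gene, and these were already whole, so rounding changed 0 values. RSEM 1.3.3, Bowtie2, cutadapt, MultiQC and hg19 are named in the submitters' processing notes, and the annotation used for counting is not given in these sources. Rows were named through GENCODE v29 (GRCh38), 52673 by a single gene, 267 by a majority of transcripts and 4796 not. Unnamed rows held 0.635% of counts and were left out. The level of the targeted gene and some single genes of the lists are not reported here.

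Tests used edgeR 4.0.16 (R 4.3.3): filterByExpr with a minimum count of 10, TMM, and glmQLFit and glmQLFTest over all 18 libraries with 1 coefficient per group. Benjamini-Hochberg adjusted p-values under 0.05 were called in each of 9 contrasts. The script was tested on simulated data. No pair of replicates agreed within counting noise (lowest chi-square per degree of freedom 4.1).

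The 7 genes and all lists were chosen with earlier results of these data known. Named genes were the 7, up to 4 called genes per direction, contrast and list with the smallest adjusted p, and the genes most correlated with each of the 7 (5 for TXNIP, 3 for the others). ITGB4, NEDD4L, TXN, MLXIPL, FKBP5 and PSMC3IP were named after their values were seen. Alternatives were RLE and upper-quartile scaling, no filter, DESeq2 1.42.0, a replicate block, fitting only the groups compared, and leaving out each library.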

Additional observations from a re-analysis of the deposited data

Results flagged for a closer look

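The E2 effect on ARRDC4 at 2 h had opposite directions in the arms, with no overlap in CPM between the 2 h and 0 h libraries in either arm. Within each arm alone, 13.7% (siControl) and 15.3% (sip53) of all genes had none. The share separated in opposite directions in both arms was not computed. In siControl the nearest libraries held 1.14 CPM (10 counts) at 2 h and 1.17 CPM (9 counts) at 0 h, so the raw counts overlapped. At 0 h, sip53 lay below siControl by a log2 difference of -1.18 ± 0.58, not called. The difference between arms in the E2 effect was 1.75 ± 0.81 on the log2 scale and was not called by edgeR (adjusted p = 0.999). Its libraries held 2 to 23 counts, and under the alternatives the difference ran from 1.36 to 2.17.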

How the results depend on the processing

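The 7 genes gave 839 log2 differences under the alternatives, of which 838 moved by less than 1 SD, and 0 that had been called changed sign. The SD is that among single libraries within the groups compared. Leaving out 1 of 3 libraries can seldom move a difference that far, so the count is no measure of stability. Of the differences that had not been called, 47 changed sign, all with a reported size of 0.15 or less (such as ARRDC4 between arms at 8 h, -0.207 to 0.388). ARRDC2 moved, in the difference between arms in the E2 effect at 8 h, to -0.58 without replicate 3 of sip53 at 8 h. The cause was not tested. The count of the 7 called at 8 h of E2 in sip53 went from 0 to 1 (MLX) with RLE size factors, upper-quartile scaling, no filter, DESeq2 and the replicate block, and was 0 to 1 with a library left out. The count in the difference between arms in the E2 effect at 8 h went from 0 to 1 (TXNIP) with no filter. The count between arms at 2 h was 0 to 2 with a library left out. Over all genes, no filter gave 272 and 792 called at 2 h and 8 h of E2 in siControl, and 187 and 683 in sip53. It gave 27 and 47 in the differences between arms in the E2 effect. DESeq2 gave 131 and 682 in siControl, 92 at 2 h in sip53, and 1 and 1 in the differences. Fitting only the groups compared gave 302 between arms at 0 h, 12 and 132 with E2 in siControl, and 273 at 8 h in sip53. With a library left out, genes called between arms were 323 to 2042, 862 to 1902 and 429 to 1498 at 0, 2 and 8 h, those with E2 were 15 to 147 and 173 to 767 in siControl, and 29 to 44 and 209 to 354 in sip53. The causes were not tested. Of 45 same-numbered pairs of libraries, 2 had a correlation of deviations over 0.1 (-0.142 to 0.22). Pairs with different numbers were not compared, so whether the replicate number marks a shared culture or batch was not tested. The replicate block gave 1474, 1862 and 1422 called between arms, 36 and 374 in siControl, 42 and 428 in sip53, and 0 in both differences in the E2 effect. Of list calls, it lost PYCARD between arms at 8 h, and MYC at 2 h and PRKAA2 at 8 h of E2 in sip53. Counting depth limits ARRDC4 and ARRDC2 most.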
